A study of Mus musculus with 12 samples.

Results

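The transcripts that a STING agonist still moved in mouse macrophages when a STING inhibitor was present are described here, from 6 of the 12 RNA libraries of the study. Primary macrophages grown from bone marrow of wild-type C57Bl/6 mice (passage 1) had been treated for 2 h with C-178, a covalent inhibitor of mouse STING (3 libraries), or with C-178 together with CMA, a small-molecule agonist that binds mouse STING (3 libraries). All 6 libraries therefore come from cells that carried the inhibitor, and they differ in the agonist. The remaining 6 libraries, unstimulated cells and cells given CMA alone for 2 h, supplied the agonist response without inhibitor against which each change was set. The labels give no concentration, no order of addition and no genotype other than wild type, and they do not say whether the replicates were separate mice or cultures, so the p-values measure the spread between these samples.

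STING is an adaptor of the endoplasmic reticulum that is switched on by cyclic dinucleotides made after DNA is sensed in the cytosol. It leaves the endoplasmic reticulum and recruits the kinase TBK1, which activates the transcription factor IRF3, and it also activates NF-κB. IRF3 and NF-κB together switch on Ifnb1, and IRF3 can also act directly on a set of interferon-stimulated genes. Secreted interferon beta then binds its receptor, and a complex that holds STAT2 and IRF9 drives the interferon-stimulated genes through the element known as the ISRE. C-178 is known to bind a cysteine of mouse STING and to block its palmitoylation.

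Reads recovered from the normalised values amounted to 28.476, 7.145 and 7.049 M in the C-178 libraries and 36.438, 8.813 and 7.766 M in those with both compounds. The replicates with both compounds lay further apart than any others, with a median SD of the log2 values of 0.34 against 0.179 with C-178 alone, and library 3 stood furthest from the CMA libraries on the first principal component. Of 24 macrophage markers in the table, all 24 were above 100 normalised counts in both groups, while the mast cell genes Mcpt4, Tpsb2 and Cma1 were at 0. A part of the label on RNA extraction names embryonic fibroblasts. The 15 fibroblast markers summed to 1824 to 2133 normalised counts with C-178 and to 874 to 2409 with both compounds, and 0 of the 13 tested were called (2 at an unadjusted p under 0.05, and 2 higher and 1 lower by edgeR), with Lum at 0 in the group with both compounds. Across 11361 genes the change with both compounds tracked transcript length (Spearman correlation -0.34 across genes, which are not independent replicates), at -0.28, -0.01 and -0.48 in libraries 1, 2 and 3. Its correlation with GC content was 0.12. The change by CMA without inhibitor had the opposite signs, at 0.14 with length and -0.30 with GC content.

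Promoter sequences of 6 genes, all raised by CMA in the presence of C-178, are shown first. The steps of Ifnb1, Nfkbia and Cxcl10 were called smaller than with CMA alone (interactions -6.49, -1.90 and -1.05). No interaction was called for Ifit1, Rsad2 and Isg15. The stretches are from RefSeq promoters on GRCm38.p6, read 5′ to 3′ on the strand of the gene, and lie within 250 bases before the start. Capitals mark matches on either strand to the ISRE letters (GAAA, any 2 bases, GAAA) or to the κB letters (GGGA, any 4 bases, CC).
Cxcl10, chr5:92348963-92349122, minus strand: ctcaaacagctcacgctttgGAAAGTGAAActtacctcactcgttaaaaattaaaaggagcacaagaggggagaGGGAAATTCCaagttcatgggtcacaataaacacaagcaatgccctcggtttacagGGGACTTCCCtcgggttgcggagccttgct
Ifit1, chr19:34640765-34640833, plus strand: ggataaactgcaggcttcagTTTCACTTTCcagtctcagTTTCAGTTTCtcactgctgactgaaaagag
Rsad2, chr12:26456498-26456592, minus strand: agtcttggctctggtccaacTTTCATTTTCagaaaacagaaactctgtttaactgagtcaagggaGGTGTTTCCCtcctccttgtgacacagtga
Isg15, chr4:156200855-156200916, minus strand: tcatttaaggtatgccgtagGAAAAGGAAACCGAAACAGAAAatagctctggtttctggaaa
Ifnb1, chr4:88522858-88522930, minus strand: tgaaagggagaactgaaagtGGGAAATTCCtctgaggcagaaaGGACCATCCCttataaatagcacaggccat
Nfkbia, chr12:55492648-55492879, minus strand: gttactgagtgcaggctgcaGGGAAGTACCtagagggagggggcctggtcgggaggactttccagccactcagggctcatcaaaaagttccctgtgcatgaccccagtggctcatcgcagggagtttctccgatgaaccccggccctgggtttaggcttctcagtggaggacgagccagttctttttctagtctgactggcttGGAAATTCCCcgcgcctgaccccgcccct
The Isg15 stretch holds 3 overlapping ISRE matches, the Ifit1 stretch 2, and those of Cxcl10 and Rsad2 1 each. Cxcl10 also holds 3 κB matches (the second site matches on both strands) and Rsad2 1. The Ifnb1 and Nfkbia stretches hold 2 κB matches each and no match to the ISRE letters. These matches are a description of the letters, not of binding.

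CMA still moved a large set of transcripts when C-178 was present. By limma over all 12 libraries, 1548 of the 11440 genes tested were higher with both compounds than with C-178 alone (13.5%) and 1440 were lower (12.6%; 26.1% in either direction), at a Benjamini-Hochberg adjusted p under 0.05. A change of 2-fold or more was seen for 660 of the higher genes (5.77% of all tested) and 445 of the lower ones (3.89%). The counts in the gene lists below stand against these shares of 13.5% and 12.6%. The lists were chosen with earlier results of these data known, so their counts are descriptions and not tests. Quantile normalisation shifted the balance to 1351 higher and 1892 lower. The fit over 12 libraries shares 1 estimate of the spread per gene among all groups. Their median SD of the log2 values was 0.115 without stimulation, 0.148 with CMA, 0.179 with C-178 and 0.34 with both compounds. The p-values of that fit can thus understate the spread of the 2 groups compared here. With only the 6 libraries of the 2 groups fitted, 738 genes were higher and 600 lower, and 561 and 337 at 2-fold or more. With the library number added as a replicate block, these 6 libraries gave 1563 higher and 1460 lower. The 3 libraries of one group lay wholly apart from the 3 of the other for 3887 genes (34%; 16.8% higher and 17.2% lower), and with 3 against 3 libraries an exact permutation test of a single gene cannot go below p = 0.1. Values here are normalised counts per library, and changes are log2 differences of the value + 1 with their SE, which understate the change of genes with few reads.

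The chemokine gene Cxcl10, whose product attracts T cells, changed most of all 11440 genes. It stood at 86.4, 75.3 and 58.1 normalised counts with C-178 and at 34067, 31751 and 26609 with both compounds, a 420-fold rise (log2 change 8.71 ± 0.21, adjusted p = 1.36e-11). Every library with CMA was thus far above every library without it, and CMA alone had given 71631, 92359 and 83458. The other large rises were those of Cd69, an early activation receptor (238-fold, 7.75 ± 0.26), Socs1, an inhibitor of JAK kinases (238-fold, 7.72 ± 0.44), and Serpina3f, a serpin (259-fold, 7.55 ± 0.41). Cmpk2, a nucleotide kinase gene next to Rsad2 on chromosome 12, rose 84.5-fold. Serpina3g (80.5-fold), Gbp5 (80.0-fold), Ccl12 (73.0-fold), Gm14446 (70.3-fold), Gbp11 (113-fold) and Oasl1 (58.5-fold) completed the 12 largest with Rsad2 (78.3-fold). Reads of serpin, Gbp and Ifit family members may be shared between near copies, and how the counting treated them is unknown here.

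**Figure D1:**
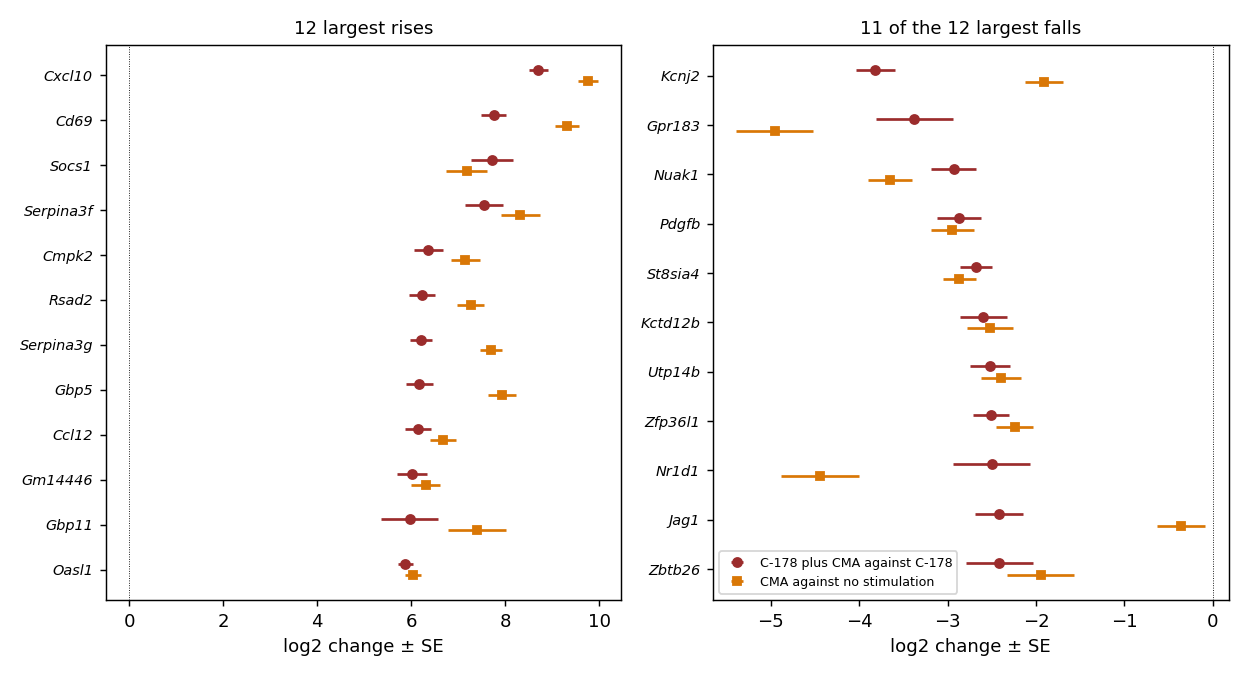
The 12 largest rises and 11 of the 12 largest falls with C-178 plus CMA against C-178 (log2 change of normalised count + 1, points with SE bars, n = 3 per group), with the change by CMA without inhibitor beside each. Cxcl10 leads the rises at 8.71 and Kcnj2 the falls at -3.81, and most genes moved in the same direction by CMA alone.

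The interferon genes, which encode the ligands, stood far below their levels with CMA alone. Ifnb1, which encodes interferon beta (chr4:88522025-88522774, minus strand, mm10), stood at 0.717, 3.01 and 2.91 normalised counts with C-178 (2 reads in each library) and at 54.0, 39.98 and 84.0 with both compounds. This was a 26.8-fold rise (log2 change 4.27 ± 0.36, adjusted p = 1.22e-06), and the libraries of the groups did not overlap. CMA alone had given 1424, 2210 and 1630, and the step with inhibitor was 6.49 log2 units smaller (interaction, limma adjusted p = 2.64e-05). Ifna4 had no read with C-178 and 0.663, 0 and 0 normalised counts with both compounds, against 19.8, 75 and 38.5 with CMA alone. Ifna2 had none with C-178 and 1.33, 0 and 1.53 with both, against 14.8, 41.4 and 33.0. Neither interferon alpha gene was called (adjusted p = 0.793 and 0.315), and the other 15 of 18 interferon genes listed were too low to be tested. Interferon alpha genes are near copies of each other, and the values of single members are uncertain.

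**Figure D2:**
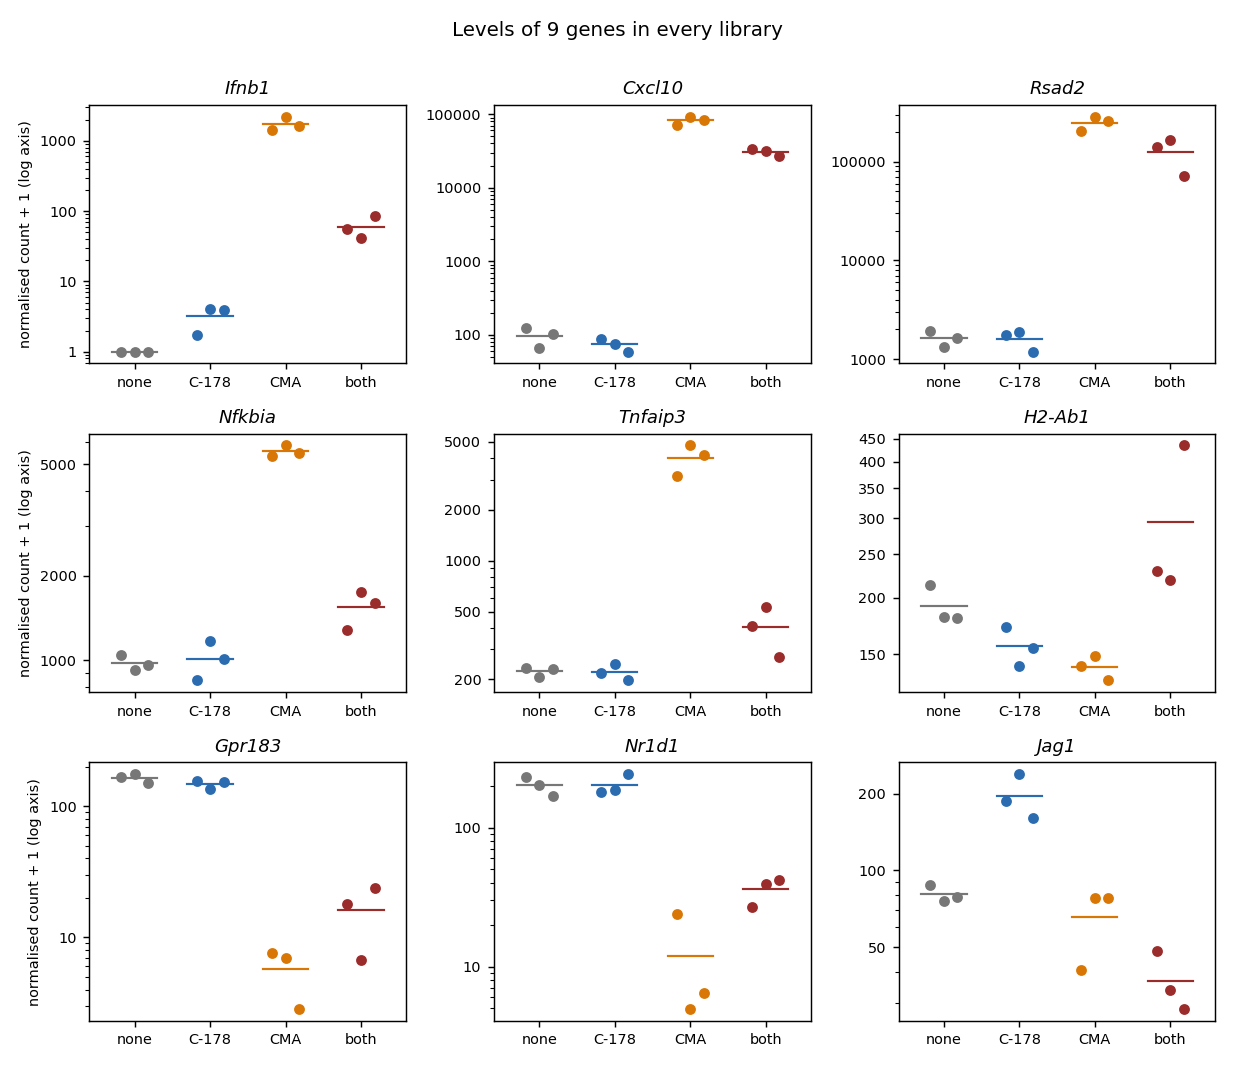
Normalised counts + 1 (log axis) of 9 genes in each of the 12 libraries by group (dots are libraries, lines group means, n = 3 per group). Cxcl10, Ifnb1, Nfkbia and Tnfaip3 with both compounds stay below their levels with CMA alone in every library (interactions -1.05, -6.49, -1.90 and -3.33). No interaction was called for Rsad2.

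Of 14 genes of interferon receptor signalling, 8 were higher and 3 lower (against 13.5% and 12.6% of all genes), and 5 were lower without library 2 with both compounds. The transcription factor gene Stat2 rose from 4114, 4902 and 3345 to 15940, 23349 and 12433 (4.18-fold). Irf9, whose product joins it in that complex, rose 2.11-fold (1.08 ± 0.10), and Irf1 rose 9.16-fold (3.16 ± 0.16). The receptor genes went the other way: Ifnar1, a chain of the type I interferon receptor, fell by 0.61 ± 0.11, and the interferon gamma receptor genes Ifngr1 and Ifngr2 fell by 0.93 ± 0.14 and 0.95 ± 0.19. For Ifngr2 the fall was smaller than with CMA alone (interaction 1.07, adjusted p = 0.0305), a difference not called without C-178 library 2 or 3 or without any 1 unstimulated or CMA library (adjusted p from 0.056 to 0.077).

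Among 24 genes of the STING pathway, 9 were higher and 1 was lower, a call lost without any 1 C-178 library or without library 2 with both compounds. Tmem173, which encodes STING itself, stood at 594, 479 and 478 with C-178 and at 687, 581 and 484 with both compounds, ranges that overlap (log2 change 0.17 ± 0.15, adjusted p = 0.421). The kinase gene Tbk1 was also not called (0.00 ± 0.13, adjusted p = 0.99), while CMA alone had raised it by 0.73, with an interaction of -0.73 (adjusted p = 0.0258). That interaction was not called without C-178 library 2 or 3, without any 1 unstimulated library or without CMA library 2 or 3 (adjusted p from 0.0571 to 0.0788). Irf7, which widens the interferon alpha response, rose from 2526, 2775 and 2804 to 16042, 15294 and 27124 (7.21-fold). Mb21d1, which encodes the DNA sensor cGAS, rose 5.82-fold (2.49 ± 0.20). Trex1, a nuclease that removes cytosolic DNA, rose 4.65-fold (2.21 ± 0.15), and Usp18, which blocks interferon receptor signalling, rose 27.4-fold (4.72 ± 0.23).

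Interferon-stimulated effectors, a list chosen with earlier results of these data known, rose in every member tested. All 52 tested members of the list were called higher with both compounds than with C-178, with changes from 1.04 to 6.36 and a median of 2.34 (median of all genes 0.007), and the same 52 were higher with CMA alone, with a median of 3.21. Rsad2, the gene of the antiviral enzyme viperin (chr12:26442746-26456452, minus strand), stood at 1764, 1900 and 1190 with C-178 and at 140770, 168210 and 71159 with both compounds (log2 change 6.23 ± 0.28, adjusted p = 3.29e-09). Ifit1, which binds viral RNA (chr19:34640871-34650009, plus strand), rose from 1784, 2171 and 1058 to 70595, 80749 and 41206, a 38.4-fold change. Isg15, the ubiquitin-like modifier (chr4:156199424-156200818, minus strand), rose from 306, 375 and 202 to 8722, 4792 and 5487. These values spanned those with CMA alone (7460, 8430 and 7832), and its interaction of -0.03 was not called (adjusted p = 0.964).

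Other effectors also rose. Oasl1, an oligoadenylate synthetase-like gene, rose 58.5-fold, Mx1, a dynamin-like GTPase, by 5.53 ± 0.28 on the log2 scale, and Ifit3 27.4-fold. Isg20, an RNA exonuclease, rose 14.6-fold and I830012O16Rik, a member of the Ifit cluster, 32.9-fold. By limma at an unadjusted p under 0.05, 26 of the 52 had a lower interaction and 2 a higher one (1915 and 1681 of all 11440 genes). For 5 of the 52 the step was called smaller than with CMA alone (5.99% of all genes had a lower interaction called). Among these Ifit2 had an interaction of -1.44 (adjusted p = 0.0387, and from 0.0565 to 0.111 without C-178 library 1 or 2, library 1 with both compounds, any 1 unstimulated library, or CMA library 2 or 3), the RNA sensor gene Ifih1 of -1.93 (adjusted p = 0.00716) and Ifi205 of -1.80. That count of 5 was 28 without library 2 with both compounds and 2 without library 1 with both compounds, without C-178 library 2, without unstimulated library a or b, or without CMA library 2 or 3. Bst2, which tethers virions, was the only member called with a larger step (1749, 1725 and 1668 with C-178; 5964, 3518 and 6642 with both; 2940, 2988 and 2742 with CMA alone; interaction 0.99, adjusted p = 0.0347). That larger step was not called without C-178 library 2 or 3, without library 1 with both compounds, or without any 1 unstimulated or CMA library, and stood at 0.38 after removal of the length and GC trend (adjusted p = 0.206), where the Ifit2 interaction was not called either (adjusted p = 0.0861).

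Guanylate-binding proteins and immunity-related GTPases, which attack the vacuoles of intracellular microbes, rose in 16 of 16 cases with a median of 3.87 (4.81 with CMA alone). Gbp5 rose from 112, 132 and 95.9 to 8677, 14026 and 4540, still below its 27341, 37498 and 34104 with CMA alone (interaction -1.75, adjusted p = 0.0226). Gbp2 rose 26.4-fold, Gbp3 17.4-fold and Tgtp2 20.9-fold. By limma at an unadjusted p under 0.05, 8 of the 16 had a lower interaction and 0 a higher one. The step was called smaller for 4 of the 16. This count of 4 fell to 0 without C-178 library 2, without unstimulated library a or b, or without CMA library 2 or 3. It was 8 without library 2 with both compounds. For Tgtp2 the interaction was 0.08 (adjusted p = 0.864).

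**Figure D3:**
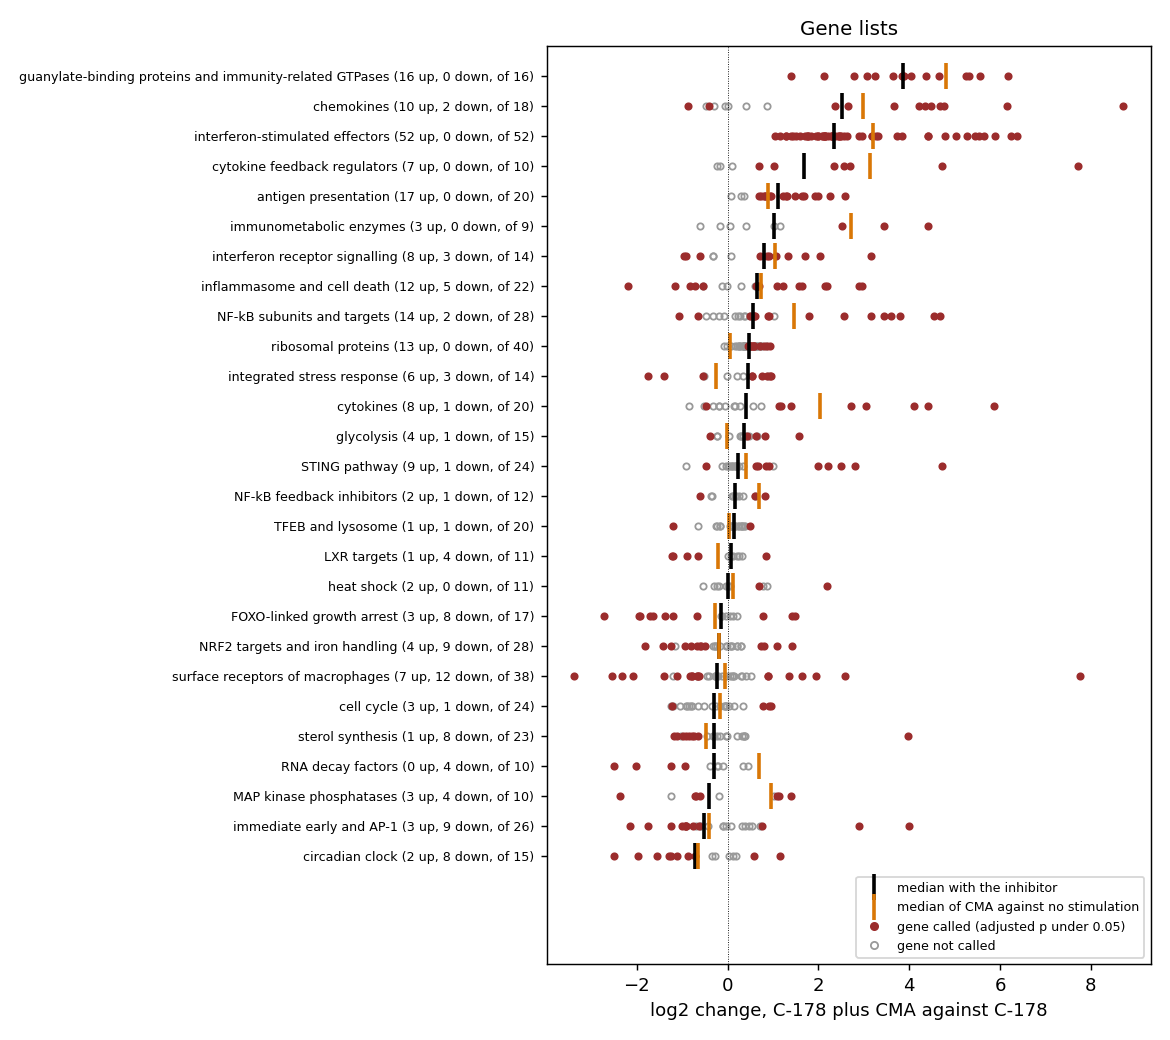
Log2 changes with C-178 plus CMA against C-178 for the tested members of each gene list with at least 9 (1 point per gene, filled where called at adjusted p under 0.05, black bar the list median, orange bar the list median for CMA against no stimulation). Interferon-stimulated effectors and guanylate-binding proteins lie wholly to the right of 0, with medians of 2.34 and 3.87, and the NF-κB lists sit well below their medians with CMA alone.

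Chemokine genes held some of the largest rises. Of 18 tested, 10 were higher and 2 lower, with a median of 2.51 (0.63 with no filter on low values and 4.21 with a filter at 50), and 12 had been higher with CMA alone (19.4% of all genes were higher with CMA alone and 17.9% lower). Ccl2, a monocyte attractant, rose from 219, 152 and 158 to 3811, 3231 and 3637, and CMA alone had given 5333, 5860 and 5499 (interaction -0.22, adjusted p = 0.457). Its neighbours on chromosome 11, Ccl7 (19.1-fold) and Ccl12 (73.0-fold), likewise had no interaction called (adjusted p = 0.355 and 0.362). Cxcl9, on the other hand, stood at 499, 1669 and 354 with both compounds and at 18728, 32455 and 23878 with CMA alone. Its rise over C-178 was still 28.2-fold, yet the step was smaller (interaction -5.46, adjusted p = 0.000391). Cxcl9, Cxcl10 and Cxcl11 adjoin on chromosome 5 and share the receptor CXCR3, and their interactions were -5.46, -1.05 and -3.77. That of Cxcl10 was not called without C-178 library 1 or 2, library 1 or 3 with both compounds, unstimulated library a or b, or CMA library 2 or 3 (adjusted p from 0.0509 to 0.109), and that of Cxcl11 was not called by edgeR (adjusted p = 0.115).

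Cxcl11 held 2 reads with C-178 and 158 with both compounds, a ratio of 74.9 (95% exact counting interval 20.4 to 624, counting error only). The genes of the macrophage inflammatory proteins Ccl3 and Ccl4 rose by 2.37 ± 0.19 and 4.68 ± 0.22, each with a smaller step than with CMA alone (interactions -1.97 and -1.18). The interaction of Ccl4 was not called without C-178 library 1 or 3, any 1 unstimulated library, or CMA library 2 or 3 (adjusted p from 0.0511 to 0.0965). Cxcl2, a neutrophil attractant, was not called (16.1, 9.03 and 14.5 with C-178; 7.29, 12.9 and 7.64 with both), though CMA alone had raised it by 1.90. The lower chemokine genes were Ccl6 and Ccl22, and neither was called with the library number as a replicate block or without C-178 library 2. Ccl8 was at 11.47, 3.01 and 5.81 with C-178 and at 35.8, 28.6 and 76.4 with both compounds (log2 change 2.65 ± 0.44).

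Of 20 cytokine genes tested, 8 were higher and 1 was lower, 15 were higher and 0 lower with CMA alone (1 lower by limma at an unadjusted p under 0.05), and 7 had a smaller step (4 to 11 without single libraries). Tnf stood at 535, 550 and 453 with C-178 and at 872, 1268 and 1256 with both compounds, a 2.21-fold rise, and CMA alone had reached 4762, 8209 and 6630 (interaction -2.21, adjusted p = 0.00105). Il6 rose 21.2-fold to 55.4, 91.4 and 67.2, from 4.30, 0 and 5.81, and its interaction of -2.33 was not called (adjusted p = 0.0614). Il1b went from 108, 108 and 97.4 to 61.7, 81.4 and 82.5, called lower (-0.48 ± 0.16, adjusted p = 0.0381) where CMA alone had raised it. That fall was lost with the replicate block (adjusted p = 0.118), without any C-178 library and without library 1 with both compounds (adjusted p from 0.0617 to 0.115). Il1a was at 15.8, 16.6 and 18.9 with C-178 and at 13.6, 14.3 and 16.8 with both compounds, not called, against 95.6, 166 and 149 with CMA alone.

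Other cytokine genes rose many-fold. Tnfsf10, the gene of the death ligand TRAIL, rose 64.6-fold from 43.7, 51.2 and 26.2 to 2914, 3785 and 1128 (interaction -0.21, adjusted p = 0.793). Il15, a growth factor of natural killer and memory T cells, rose 6.86-fold. Il10, the anti-inflammatory cytokine gene, stood at 87.5, 108 and 93.0 with C-178, at 533, 900 and 1042 with both compounds and at 396, 460 and 442 with CMA alone. Its step was thus larger with the inhibitor present (3.04 ± 0.21 against 1.53; interaction 1.51, adjusted p = 0.0104). Il27 rose 19.0-fold with a smaller step (interaction -1.59, not called without CMA library 2, adjusted p = 0.0556).

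Feedback regulators of cytokine signalling were higher in 7 of 10 cases. Socs1 reached 2485, 1768 and 848 with both compounds from 12.6, 4.52 and 4.36, and CMA alone had given 2235, 2118 and 2238 (interaction 0.54, adjusted p = 0.565). Socs3, which restrains STAT3 signalling, reached 251, 507 and 159 from 49.1, 37.6 and 37.8, while CMA alone had given 4274, 4585 and 4341 (interaction -3.07, adjusted p = 0.00137). Pim1, a kinase gene induced by STAT factors, rose 5.51-fold (interaction -1.88), and Cish, another family member of the Socs genes, rose by 2.57 ± 0.43 (interaction -2.68, not called without CMA library 2, adjusted p = 0.0604).

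NF-κB feedback genes showed small changes with both compounds. The feedback inhibitor gene Nfkbia (IκBα; chr12:55489410-55492647, minus strand) stood at 846, 1170 and 1008 with C-178 and at 1281, 1749 and 1594 with both compounds. The groups did not overlap, but the rise was 1.53-fold (log2 change 0.61 ± 0.14, adjusted p = 0.00648), and CMA alone had given 5333, 5826 and 5483 (interaction -1.90, adjusted p = 0.000281). Tnfaip3, which encodes A20, went from 216, 245 and 196 to 412, 533 and 269 (1.84-fold), with CMA alone at 3166, 4770 and 4209 (interaction -3.33, adjusted p = 6.49e-05). Of the 12 feedback inhibitors these 2 were higher and Tnip1 was lower, shares close to those of all genes, where CMA alone had raised 8. The call of Tnfaip3 was lost without C-178 library 3 (adjusted p = 0.0522) and that of Nfkbia with the length and GC trend removed. Both calls were also lost with only the 6 libraries fitted and no replicate block (limma adjusted p = 0.0703 for Tnfaip3 and 0.0721 for Nfkbia). The call of Tnip1 was lost without C-178 library 2 or 3 or without library 1 or 2 with both compounds (adjusted p from 0.0602 to 0.112).

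Of 28 NF-κB subunits and targets, 14 were higher and 2 lower, with a median of 0.56, against 22 and 1 and a median of 1.47 with CMA alone. A smaller step was called for 15 of them, and for 7 to 19 when single libraries were left out (7 without CMA library 2, 9 without CMA library 3 or unstimulated library a). Tnfsf15, a TNF family ligand, rose 25.1-fold to 198, 324 and 189, against 1854, 2747 and 2531 with CMA alone (interaction -2.95). Ccrl2, an atypical chemokine receptor gene, rose 12.6-fold (interaction -2.09). Cd40, a costimulatory receptor gene, rose 27.7-fold from 23.3, 16.6 and 32.0 to 748, 887 and 356, and its interaction of -0.70 was not called (adjusted p = 0.268). The subunit genes moved little, with Nfkb1 at 0.55 ± 0.17 (lost without C-178 library 2 or 3 or without library 1 or 2 with both compounds, adjusted p from 0.0569 to 0.0896). Rel, at 0.56 ± 0.40, was not called (adjusted p = 0.322), though it was called without library 3 with both compounds (adjusted p = 0.00373).

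Enzymes of the inflammatory macrophage were moved in part. Irg1, whose product makes itaconate, rose 22.1-fold to 4577, 6524 and 2923, against 26844, 49423 and 39087 with CMA alone (interaction -3.40, adjusted p = 0.000572). Nos2, the inducible nitric oxide synthase gene, rose to 37.5, 52.8 and 22.9 from 1.43, 3.01 and 2.91, against 180, 462 and 314. Ptgs2 (COX-2) missed the threshold (1.01 ± 0.36, adjusted p = 0.0535) and passed it with the replicate block (adjusted p = 0.0116). Gch1, which starts biopterin synthesis, rose with no interaction called (104, 113 and 119 to 704, 647 and 600; interaction -0.19, adjusted p = 0.509). Of 9 such enzymes, 3 were higher here and 8 with CMA alone, and 5 without library 3 with both compounds.

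Antigen presentation genes were higher in 17 of 20 cases and in 13 of 20 with CMA alone, with medians of 1.10 and 0.88. Tap1, a chain of the peptide transporter, rose 6.12-fold, from 875, 768 and 792 to 6235, 5146 and 3510. The immunoproteasome genes Psmb10 and Psmb9 rose 3.98-fold and 3.89-fold, and H2-T23, a nonclassical class I gene, 3.16-fold. A larger step than with CMA alone was called for the 3 class II genes H2-Aa, H2-Ab1 and H2-Eb1, whose products present peptides to CD4 T cells. H2-Aa went from 180, 107 and 145 to 340, 240 and 446 (1.23 ± 0.22), while CMA alone left it at 148, 180 and 141 (interaction 1.37, adjusted p = 0.0195). H2-Eb1 went from 119, 97.9 and 110 to 204, 174 and 168 (0.73 ± 0.16), and H2-Ab1 rose by 0.85 ± 0.22, a call lost without C-178 library 2 (adjusted p = 0.0538). With the length and GC trend removed the rise of H2-Eb1 was not called (0.48 ± 0.17, adjusted p = 0.0533), nor were the interactions of H2-Eb1 and H2-Ab1 (adjusted p = 0.0689 and 0.0914). The count of 3 was 1 without C-178 library 2, unstimulated library 1 or a, or CMA library 3, and 9 without library 2 with both compounds. Of 9 dendritic cell markers, which such genes can also mark, the sum was 1783 to 1869 normalised counts with C-178 and 3613 to 6763 with both compounds, and Bst2 was the 1 member above 100 in either group. Flt3 went from a mean of 8.53 to 5.34, Clec9a from 5.15 to 12.5 and Batf3 from 45.8 to 39.8, and no marker was at 0 in all libraries of either group. The part of these cells in the class II result was not tested. In bulk RNA, more cells of a type and more RNA per cell cannot be told apart.

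Genes of inflammasomes and cell death were 12 higher and 5 lower of 22. Zbp1, a sensor of Z-form nucleic acids, rose from 861, 923 and 626 to 5564, 7909 and 5290. Casp4, which encodes caspase-11 of the mouse, rose 7.69-fold and Mlkl, the executor of necroptosis, 3.14-fold, both with smaller steps than with CMA alone (interactions -1.34 and -1.08). For Casp4 the interaction was not called without C-178 library 2, unstimulated library a, or CMA library 2 or 3 (adjusted p from 0.0578 to 0.0739), nor with the length and GC trend removed. Nod2, a peptidoglycan sensor gene, rose 4.54-fold. In the opposite direction Bmf, a BH3-only death gene, fell 4.53-fold, from 315, 387 and 362 to 69.6, 64.3 and 101, well short of its 16.5, 1.97 and 3.67 with CMA alone (interaction 3.73, adjusted p = 0.00485). The count of 5 lower genes was 3 without C-178 library 3.

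The falls were smaller in size than the rises. Kcnj2, an inward rectifier potassium channel gene, fell furthest among genes with a mean of at least 100 normalised counts, from 505, 530 and 464 to 43.4, 38.6 and 24.4 (14.1-fold, log2 change -3.81 ± 0.22, adjusted p = 2.36e-08). CMA alone had left it at 84.1, 136 and 106, so this fall was larger with the inhibitor present (interaction -1.91, adjusted p = 0.0033). Gpr183, the oxysterol receptor that guides immune cells, fell 9.67-fold, from 154, 134 and 153 to 16.9, 5.71 and 22.9. Nuak1, a kinase of the AMPK family, fell 7.46-fold and Pdgfb, a growth factor gene, 7.32-fold. The sialyltransferase gene St8sia4 (6.36-fold), Kctd12b (5.76-fold), Utp14b (6.08-fold) and Zbtb26 (5.58-fold) followed, and none of these 7 had an interaction called.

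Receptors of the macrophage surface were 7 higher and 12 lower of 38. Besides Cd69, Fcgr1, the high-affinity IgG receptor gene, rose 6.02-fold from 1780, 1746 and 1704 to 10919, 11373 and 9215, with no interaction called (interaction 0.05, adjusted p = 0.851). Fcgr4 rose 3.15-fold. Cd300lb, an activating myeloid receptor gene, fell 4.80-fold, against a far larger fall with CMA alone (interaction 2.65, adjusted p = 0.00108). Cnr2, the cannabinoid receptor gene, fell by 1.39 ± 0.38, a call lost without C-178 library 1 or 3 (adjusted p = 0.0533 and 0.0534).

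Genes of the circadian clock were more often called lower than higher. Of 15 clock genes 8 were lower and 2 higher, the same counts as with CMA alone, with medians of -0.71 and -0.66. The first median was -0.29 with the length and GC trend removed and -0.38 without library 3 with both compounds. In this list 1 was higher without any 1 C-178 library or without library 1 or 2 with both compounds. Nr1d1, which encodes the repressor REV-ERBα, stood at 179, 187 and 241 with C-178 and at 25.9, 38.6 and 41.3 with both compounds (5.74-fold, log2 change -2.50 ± 0.44, adjusted p = 0.000905). The repressor genes Bhlhe41 (-1.97 ± 0.19) and Bhlhe40 (-1.30 ± 0.16) and the period genes Per1 (-1.56 ± 0.17) and Per2 (-1.24 ± 0.27) fell with it. An interaction was called for 2 of the 15, 1 in each direction, and missed the threshold for Nr1d1 (1.94, adjusted p = 0.0614). No interaction of the list was called without unstimulated library 1 or a or CMA library 2 or 3, and only the lower one without C-178 library 2 or 3, library 1 with both compounds or unstimulated library b. There were 3 higher and 4 lower without library 2 with both compounds, and 3 and 1 without CMA library 1.

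Genes tied to FOXO factors and growth arrest were 8 lower and 3 higher of 17. Sesn1, a stress-induced inhibitor of mTORC1 signalling, fell from 3802, 3472 and 3589 to 1212, 741 and 931, and CMA alone had left 396, 300 and 354 (interaction 1.82, adjusted p = 0.000753). Trib1 (-1.70 ± 0.16), Cdkn1b (-1.65 ± 0.21) and the insulin receptor substrate gene Irs2 (-2.72 ± 0.43) fell. Cdkn1a, the cyclin-dependent kinase inhibitor p21, rose 2.81-fold, from 5737, 6051 and 5809 to 15331, 15511 and 18664. The list median of -0.15 was above 0 (0.07) without library 3 with both compounds, -0.51 without C-178 library 2, and -0.39 and -0.25 without library 1 and library 2 with both compounds.

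RNA decay factors were 4 lower and 0 higher of 10 (0 higher by limma at an unadjusted p under 0.05, by edgeR and by DESeq2), while CMA alone had raised 6 of them, and 1 was higher without library 1 or 3 with both compounds. Zfp36l1, which binds AU-rich elements, fell 5.51-fold, from 1238, 1268 and 1376 to 153, 273 and 280. Zfp36l2 fell 4.08-fold, less than with CMA alone (interaction 1.73, adjusted p = 0.00258), and Zc3h12d fell 2.26-fold. Zc3h12c was called lower here and higher with CMA alone (interaction -1.85, adjusted p = 0.0171, and from 0.0517 to 0.0581 without C-178 library 2, unstimulated library a, or CMA library 2 or 3), and its fall was lost without any 1 C-178 library or without library 3 with both compounds (adjusted p from 0.0534 to 0.122).

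Immediate early and AP-1 genes were 3 higher and 9 lower of 26, against 10 and 8 with CMA alone, and 5 were higher without library 1 or library 3 with both compounds. The 3 higher genes were close to the share of all genes (13.5%, and 12.6% were lower). Batf2 (16.7-fold) and Mafk (7.61-fold) rose and Atf3 rose 1.71-fold. Myc fell 4.30-fold, from 157, 142 and 160 to 26.2, 54.3 and 26.0. Egr2 fell from 80.3, 93.3 and 87.2 to 20.2, 28.6 and 27.5 but was not called with CMA alone (interaction -1.23, adjusted p = 0.0258, and from 0.0583 to 0.0711 without C-178 library 2 or 3, unstimulated library a or b, or CMA library 2 or 3). Of 10 MAP kinase phosphatases, Dusp7 fell 4.88-fold and Dusp3 1.65-fold, Dusp2 rose 2.76-fold, and Dusp16 was called at 1.13 ± 0.33 in a rise lost without C-178 library 2 or 3 or without library 1 or 2 with both compounds (adjusted p from 0.0545 to 0.0685). In this list 3 were higher and 4 lower, and 1 was higher without C-178 library 3 or without library 2 with both compounds, 2 lower without C-178 library 2 or 3.

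The integrated stress response list held 6 higher and 3 lower genes of 14. Ppp1r15a, which encodes the phosphatase subunit GADD34, stood at 237, 227 and 230 with C-178 and at 388, 515 and 428 with both compounds, a 1.92-fold rise. CMA alone had given 5937, 5070 and 4763, so that this interaction, at -3.85, had the smallest adjusted p of all named genes (1.4e-07). Hspa5, the chaperone BiP, rose 1.45-fold, a call lost with quantile normalisation (0.22 ± 0.12, adjusted p = 0.204). Its interaction of -0.62 (adjusted p = 0.0386) was lost there too, with the length and GC trend removed, and without C-178 library 2 or 3 or any 1 unstimulated or CMA library (adjusted p from 0.0502 to 0.108 without a library). Herpud1 fell 3.13-fold. The count of 6 was 3 without C-178 library 2, and also once the trend with length and GC content was taken out.

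Of 23 sterol genes 8 were lower and 1 was higher, and 2 and 3 were higher without library 1 and library 3 with both compounds. Hmgcs1, an early enzyme of the pathway, fell from 1158, 1316 and 1270 to 541, 570 and 541, with an interaction of -0.56 (adjusted p = 0.0432). This was not called without C-178 library 2 or 3, library 1 with both compounds, any 1 unstimulated library, or CMA library 2 or 3 (adjusted p from 0.0555 to 0.124), and stood at -0.31 after removal of the length and GC trend (adjusted p = 0.155). Cyp51 fell 1.97-fold and Fdft1 1.79-fold. Ch25h, which makes the oxysterol sensed by Gpr183, rose 20.7-fold from 6.10, 4.52 and 11.6 to 236, 183 and 42.8. Of 11 LXR targets, Mylip fell 2.30-fold and Scd2 1.86-fold and Abcg1, a cholesterol exporter gene, rose 1.79-fold. Abca9 was called at -1.23 ± 0.33, lost without C-178 library 2 (adjusted p = 0.0671). Across that list 1 was higher and 4 were lower, 2 of them higher without library 3 with both compounds and 2 lower without C-178 library 2.

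Targets of NRF2, the antioxidant factor, were 9 lower and 4 higher of 28 (12.6% and 13.5% of all genes), the higher count close to the share of all genes. Hmox1, the heme oxygenase gene, was high in all 6 libraries, at 35380, 29685 and 31411 with C-178 and 32762, 22692 and 41374 with both compounds, and was not called (-0.03 ± 0.18, adjusted p = 0.91). Slc40a1, the iron exporter gene, fell 2.61-fold, from 12135, 11788 and 11881 to 6001, 3590 and 4142. Gclc (1.92-fold) and Mafg (2.34-fold) fell, and Keap1, which holds NRF2 back, rose 2.71-fold. The count of 4 was 1 without C-178 library 2.

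Ribosomal protein genes, which encode the structural proteins of the ribosome, moved upward in part. Of 40 tested, 13 were higher and 0 lower, with a median of 0.47 (26 higher and 0 lower by limma at an unadjusted p under 0.05, and 16 and 0 by edgeR, 20 and 0 by DESeq2). With CMA alone limma called 0 of the 40 (median 0.05; 1 at an unadjusted p under 0.05). Rplp0 went from 4588, 4910 and 5718 to 8214, 6804 and 7681 (1.49-fold), and Rps16 rose 1.75-fold. The length trend of the libraries moved with this list, and 3 of 40 were called with the length and GC trend removed, where the median was 0.16 (0.29 with quantile normalisation). Without C-178 library 2 the count was 3, without C-178 library 1 it was 7, without library 1 with both compounds 6 and without library 2 with both compounds 28, and with the replicate block 23. The interaction was called by limma for 0 of the 40 (9 at an unadjusted p under 0.05), and for 0 to 10 when single libraries were left out.

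In glycolysis 4 of 15 were higher and 1 was lower, led by Pfkfb3, an activator of the pathway (3.10-fold). Pfkp rose 1.80-fold. Ldha was called at 0.62 ± 0.15, a call lost with the length and GC trend removed. Without library 2 with both compounds 8 of these 15 were higher, and the lower call was lost with the replicate block and without any 1 of the C-178 libraries. In the lysosomal list of 20, Tfeb, the master regulator of lysosomal genes, fell 2.27-fold and Atp6v0d1, a proton pump subunit gene, rose 1.41-fold, the only 2 called of 20 (3 higher without library 3 with both compounds, 3 lower without library 2, and 2 lower with the replicate block). The call of Atp6v0d1 was lost after removal of the length and GC trend (0.23 ± 0.09, adjusted p = 0.064). The heat shock list held 2 higher and 0 lower genes of 11 (2 lower by limma at an unadjusted p under 0.05, 0 by edgeR and by DESeq2). One was Dnaja1 (1.62-fold), and the call of Hspa1b (2.2 ± 0.66) was lost without C-178 library 2 or 3 or without library 3 with both compounds (adjusted p from 0.0708 to 0.116), and by edgeR (1.09, adjusted p = 0.167) and DESeq2 (1.43, adjusted p = 0.112). Bag3 was called lower with the replicate block (adjusted p = 0.0355). In the cell cycle list, Pcna (1.95-fold), Ccne1 (1.90-fold) and Mcm6 (1.73-fold) were the 3 higher of 24, close to the 13.5% of all genes. Mki67 was lower at -1.23 ± 0.41, lost by edgeR and DESeq2 (adjusted p = 0.0752 and 0.121), without any 1 C-178 library and without library 1 or 3 with both compounds, and 7 genes of that list were lower without library 2 with both compounds.

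The step taken by CMA in the presence of C-178 was then set against the step without it. The comparisons have no library in common. Of the 1259 genes that CMA alone raised 2-fold or more (11% of all genes), 733 were also called higher here, 522 were not called and 4 were lower. The median gene kept 49.4% of its log2 change (quartiles 22.8% and 75.2%), and for 438 the step was called smaller with the inhibitor and for 3 larger. Among the 571 raised 4-fold or more, 436 were called higher here and the median share kept was 61.2%. For the 863 genes that CMA alone lowered 2-fold or more (7.54% of all genes), 497 were called lower here, 251 had a smaller step, and the median share kept was 49.8%. Over all genes the interaction was called higher for 452 (3.95%) and lower for 685 (5.99%), from 122 to 1681 and from 209 to 2018 when single libraries were left out. The counts of interactions and the shares kept were not computed with the length and GC trend removed, though the 2 steps tracked length and GC content in opposite directions.

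**Figure D4:**
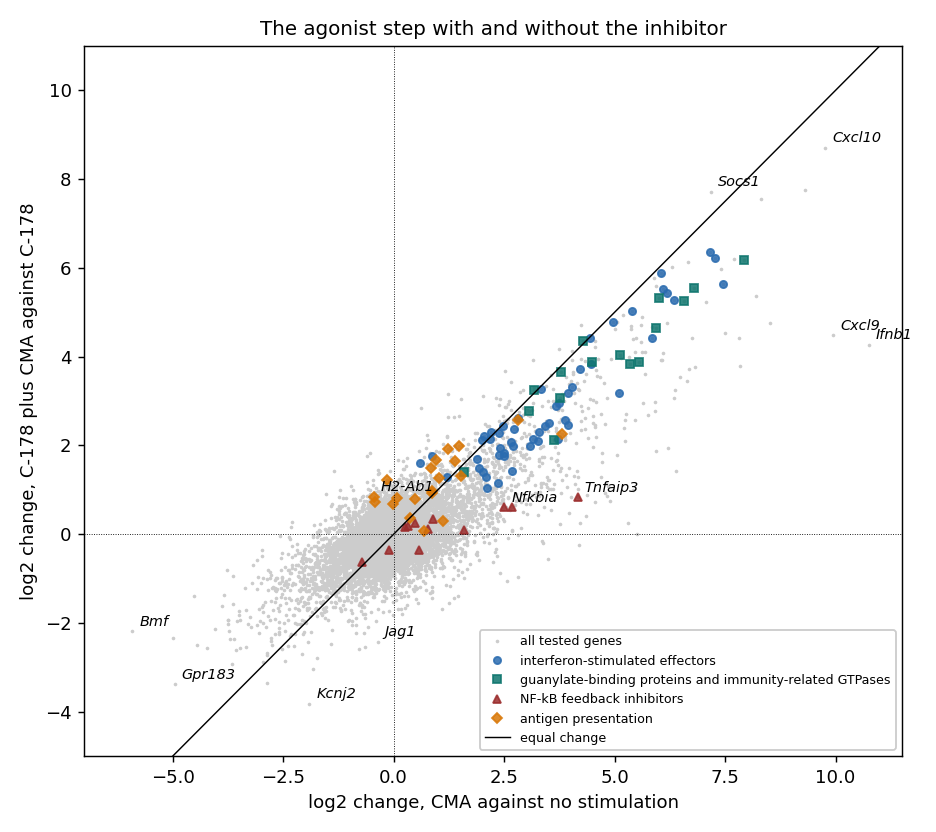
Log2 change by CMA without inhibitor (x axis) against the log2 change by CMA in the presence of C-178 (y axis), 1 point per gene for 11440 genes, with members of 4 gene lists in colour. Interferon-stimulated effectors lie close to the line of equal steps (median 80.5% of the log2 change kept). The NF-κB feedback inhibitors raised by CMA alone lie mostly below it (median 21.3% kept).

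The share kept was computed for each gene group. Interferon-stimulated effectors kept a median of 80.5% of their log2 change, guanylate-binding proteins 81.5%, chemokines 84.6% and antigen presentation genes 109.9% (median over the members called higher with CMA alone). NF-κB targets kept 38.7%, cytokines 33.8%, immunometabolic enzymes 26.0% and NF-κB feedback inhibitors 21.3%, and Ifnb1 kept 39.7%. Over all genes raised by CMA the median was 41.8%, and it was 49.4% for rises of 2-fold or more and 61.2% for 4-fold or more. The lists differed in their median log2 change with CMA alone over all tested members. It was 3.21 for the effectors, 4.81 for guanylate-binding proteins, 2.71 for immunometabolic enzymes, 1.47 for NF-κB subunits and targets and 0.68 for feedback inhibitors. Shares were not compared at a matched size of change. The differences between lists were not tested.

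At the ends of the range stood genes chosen by the share itself, whose shares are given as a description. Aldh1b1, a mitochondrial aldehyde dehydrogenase gene, rose from 189, 146 and 189 to 1995, 1608 and 1057 with both compounds, and CMA alone had given 826, 870 and 914. Slfn1, BC147527 and Slc25a22 followed, with no interaction called (3.05 ± 0.25, 3.93 ± 0.25 and 2.91 ± 0.18). At the other end, Rnd3, a small GTPase gene, stood at 73.5, 113 and 74.1 with C-178 and at 47.4, 84.2 and 47.4 with both compounds, not called, where CMA alone had reached 801, 1131 and 1044. Fas, the death receptor gene, was at 124, 131 and 128 and at 109, 110 and 87.1, against 302, 545 and 398. Dgkh and Tnn, the latter a matrix glycoprotein gene, were not called either. Among falls, Cpeb2, a translation regulator gene, changed by -2.26 ± 0.13 here and by -2.23 with CMA alone, while Tifab, Abi3, Calhm2 and Sla were not called here after falls of 2.19, 2.19, 2.00 and 2.11 with CMA alone.

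Most of the larger changes here were shared with CMA alone. Of the 660 genes higher by 2-fold or more, 596 (90.3%) were also called higher with CMA alone, and of the 445 lower, 334 (75.1%) were also lower. The others included 64 and 109 genes not called with CMA alone, and 2 of the lower genes were higher with CMA alone. Of those not called, the interaction was called for 15 and 17. Jag1, a Notch ligand gene, fell from 186, 238 and 160 to 47.4, 32.8 and 27.5 (5.42-fold, log2 change -2.42 ± 0.27). With CMA alone it was at 39.6, 77.0 and 77.1, and without stimulation at a mean of 79.7, so that C-178 alone held the highest level (interaction -2.06, adjusted p = 0.00737). Ednrb, the endothelin receptor gene, fell from 402, 598 and 446 to 137, 160 and 62.6, with a mean of 127 without stimulation. Gadd45a, a growth arrest gene, fell 3.68-fold (interaction -1.54, not called without C-178 library 2 or 3, any 1 unstimulated library or CMA library 2). Pex26, a peroxisome gene, rose 4.82-fold (interaction 1.49, adjusted p = 0.0355). The latter interaction was not called without C-178 library 2 or 3, library 1 with both compounds, any 1 unstimulated library or CMA library 2 or 3 (adjusted p from 0.0672 to 0.0988).

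The 3 libraries with both compounds did not carry the response evenly. Over the 1259 genes that CMA alone raised, library 1 stood at a median of 51.3% of the log2 change, library 2 at 69.8% and library 3 at 32.4%. For interferon-stimulated effectors the same shares were 80.9%, 91.0% and 73.6%, and for guanylate-binding proteins 83.2%, 93.5% and 66.5%. NF-κB targets stood at 41.3%, 52.3% and 42.6%, so that in every library they were below the interferon-stimulated genes. Chemokines (74.4%, 76.9% and 84.2%) and antigen presentation genes (116.4%, 94.8% and 98.8%) were not lowest in library 3.

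**Figure D5:**
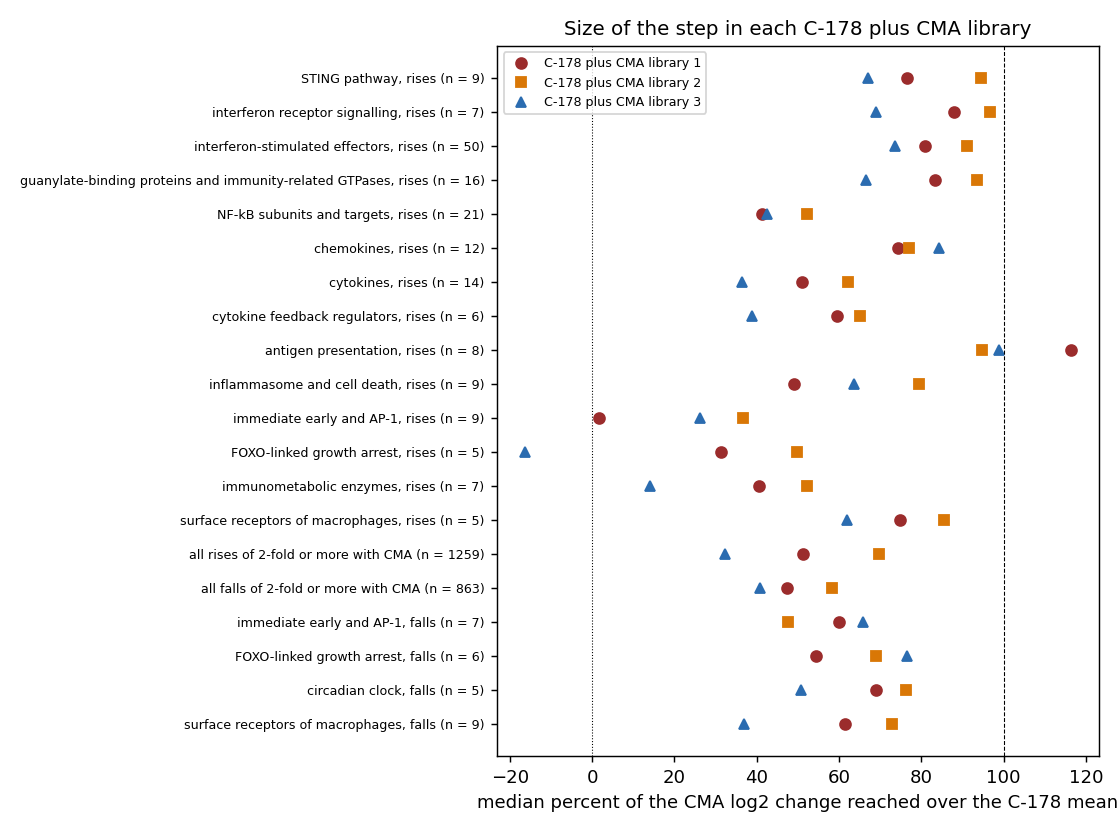
Median percent of the CMA log2 change seen in each library with C-178 plus CMA, relative to the mean of the C-178 libraries, for genes raised or lowered 2-fold or more by CMA alone (points are libraries 1 to 3). Library 2 is highest for all rises at 69.8% and library 3 lowest at 32.4%, and interferon-stimulated effectors lie above NF-κB targets in each library.

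A few genes were set apart in library 3. Saa3, an acute phase gene, stood at 1822, 2100 and 40937 with both compounds and at 1127, 1644 and 2347 with C-178, and was not called (adjusted p = 0.143). It was called with the replicate block (adjusted p = 0.0448). Ccl5 stood at 2183, 2729 and 34420, against 476, 328 and 638 with C-178 and 7445, 9618 and 8240 with CMA alone, and it was called higher (3.67 ± 0.73), with groups that did not overlap. Cst7, a cystatin gene, was at 39.1, 52.8 and 946 against 17.6, 19.6 and 29.1, a call lost without any 1 C-178 library (adjusted p from 0.0678 to 0.11). The loci F830016B08Rik (125, 548 and 32.1) and Gdap10 (141, 188 and 13.8) were instead lowest in library 3.

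The promoter letters shown above were counted over the 9221 tested genes (80.6%) with a RefSeq promoter. A gene was counted if any of its promoters held a match. The ISRE letters occurred in 3.57% of these genes and the κB letters in 26.1%. Counted by single promoter, the shares were 2.98% and 17.6% of all 32851 promoters. The 2 kinds of share cannot be compared, since a gene with several promoters has more chances of a match. By gene, the ISRE letters were held by 8.77% of higher genes and 2.10% of lower genes, and by 15.7% and 3.19% at changes of 2-fold or more. Among genes higher here by 4-fold or more, 54 of 216 (25%) held them. The κB letters were found in 24.4% of the higher and 28.1% of the lower genes, and in 27.8% and 27.0% at 2-fold or more. Of the genes raised 4-fold or more by CMA alone, 26.1% held the ISRE letters where the step was also called here with no interaction (58 of 222). The share was 9.83% where the interaction was called smaller (17 of 173), and the κB letters were in 27.5% and 30.1%. No test was made of these shares, which are descriptions of letters in a fixed window.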

How the data were processed

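The deposited table holds signal values, gene counts normalised between libraries by the authors, and per the submitters' processing notes Bowtie2 2.2.1, limma 3.18.13 and mm10 were used. No label or header names the counting program or its strand setting. Total RNA was prepared with a stranded mRNA kit, per the labels' protocols. Values were whole multiples of 1 read in every library (tolerance 0.01), so the reads were recovered from the deposited values for edgeR 4.0.16 and DESeq2 1.42.0 as alternatives. Of 24062 entries, 11440 passed a filter of more than 10 in at least 3 libraries. Differences of log2(value + 1) were fitted with limma 3.58.1 in R 4.3.3 over all 12 libraries with a mean-variance trend, two-sided with Benjamini-Hochberg adjustment over all genes tested, and genes with an adjusted p under 0.05 were called. The interaction is the step by CMA with C-178 minus the step without it.

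The labels do not say whether a library number marks a pair across the groups with and without CMA that carried the inhibitor. Deviations of same-numbered libraries correlated at 0.45, 0.43 and 0.26, and those of different numbers at -0.31 to -0.09. Deviations within a group are not independent, so the negative values add little to the positive ones. Library 1 was also the deepest in both groups (28.476 and 36.438 M reads). Pairing was thus not established. The main fit ignores the numbers, and the replicate block is an alternative. Columns headed by a shared name left 2 unstimulated libraries as a and b. Another 12 columns of per-sample values were not used. Named genes were the 12 largest rises and 12 largest falls with groups that did not overlap and a higher mean of at least 100, 25 listed genes, up to 4 members per list with the smallest adjusted p, those keeping the highest and lowest share of a CMA change, those called here but not with CMA alone, and those most spread over the libraries with both compounds. A further 23 genes were named after their values were seen. A few items are not reported here. Members and lists were chosen with earlier results of these data known. The limma fit of the main contrast was run on data simulated with the same spread in all groups, unlike the wider spread seen with both compounds. The interaction, edgeR and DESeq2 were not tested in this way. In all, 27 alternatives were run, those on length and GC content and on the CMA and unstimulated libraries chosen after seeing the data.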

Additional observations from a re-analysis of the deposited data

Results flagged for a closer look

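The step that CMA took with C-178 present differed from the step without it for 77 named genes, by the interaction of the fit with limma at an adjusted p under 0.05. The values in parentheses are interactions on the log2 scale. For 62 genes the change was smaller or opposite with the inhibitor, and 40 of the 77 were called in all 24 settings that give an interaction. The call was lost for 33 genes without 1 or more single libraries, at most 32 of them in any 1 fit (without CMA library 2). It was lost for 17 with the length and GC trend removed, 14 with no mean-variance trend, 10 with no filter on low values, 7 with quantile normalisation and 5 by edgeR. Where not given above, the call was lost without each of 10 single libraries for Gbp3 and Atp6v0d1, 9 for Zc3h12d and 8 for Aldh1b1. The number was 7 for Cyp51, Ednrb, Jak2 and Fcgr4, 6 for Gbp2 and H2-Ab1, and 5 for Cd69, Gbp5, Dgkh and F830016B08Rik. It was 4 for Dusp7 and H2-Aa and 1 for Serpina3g and Ifna2. With the length and GC trend removed, Aldh1b1 stood at 0.69 and Atp6v0d1 at 0.14 (adjusted p = 0.174 and 0.499).

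Rises that were called in both steps but were smaller with the inhibitor were those of Ifnb1 (-6.49), Cxcl9 (-5.46), Ppp1r15a (-3.85), Cxcl11 (-3.77), Irg1 (-3.40), Tnfaip3 (-3.33), Nos2 (-3.19), Socs3 (-3.07), Tnfsf15 (-2.95), Cish (-2.68), Dusp16 (-2.31), Tnf (-2.21), Ccrl2 (-2.09), Ccl3 (-1.97), Ifih1 (-1.93), Nfkbia (-1.90), Pim1 (-1.88), Ifi205 (-1.80), Gbp5 (-1.75), Dusp2 (-1.70), Il27 (-1.59), Cd69 (-1.56), Serpina3g (-1.49), Ifit2 (-1.44), Ccne1 (-1.40), Casp4 (-1.34), Batf2 (-1.33), Gbp2 (-1.29), Jak2 (-1.28), Ccl4 (-1.18), Mlkl (-1.08), Gbp3 (-1.08), Cxcl10 (-1.05), Fcgr4 (-0.68) and Hspa5 (-0.62). Rises with CMA alone that were not called with the inhibitor were those of Ifna4 (-5.07), Tnn (-4.44), F830016B08Rik (-4.42), Rnd3 (-4.05), Ifna2 (-3.98), Il1a (-3.58), Fas (-2.65), Ptgs2 (-2.60), Cxcl2 (-2.37), Dgkh (-2.23), Tnfaip2 (-0.93) and Tbk1 (-0.73). The reads of interferon alpha genes and of guanylate-binding protein genes may be shared between near copies.

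Falls that were called in both steps but were smaller with the inhibitor were those of Bmf (3.73), Cnr2 (3.12), Cd300lb (2.65), Tfeb (2.15), Sesn1 (1.82), Zfp36l2 (1.73), Dusp7 (1.33), Zc3h12d (1.23) and Ifngr2 (1.07). Falls with CMA alone that were not called with the inhibitor were those of Tifab (1.98), Abi3 (1.83), Sla (1.68) and Calhm2 (1.66).

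Larger changes in the same direction with the inhibitor were those of Kcnj2 (-1.91), Il10 (1.51), Aldh1b1 (1.07), Bst2 (0.99) and Hmgcs1 (-0.56). Changes that were called with the inhibitor and not called without it were those of Jag1 (-2.06), Gadd45a (-1.54), Ednrb (-1.50), Pex26 (1.49), H2-Aa (1.37), H2-Ab1 (1.29), Egr2 (-1.23), H2-Eb1 (1.15), Cyp51 (-0.74) and Atp6v0d1 (0.57). Called in opposite directions were Zc3h12c (-1.85) and Il1b (-1.30), each lower with the inhibitor and higher without it.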

How the results depend on the processing

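No named change that was called reversed in the alternatives run, and 7 that were not called varied in sign. Of the named values of the main contrast 3576 kept their side of the threshold, 113 lost it and 41 gained it. Fitting only the 6 libraries without the replicate block gave 738 higher and 600 lower genes, and 21 named calls were lost. In that limma fit the adjusted p of the lost calls ran from 0.0567 to 0.185. Lost were Il1b, Nfkbia, Tnfaip3, Tnip1, Dusp16, Zc3h12c, Hspa5, Abca9, Ldha, Aldoa and Atp6v0d1. The others were Hspa1b, Rplp0, Rps16, Rps24, Rplp1, Mki67, Cst7, H2-Ab1, Jak2 and Nfkb1. With the library number as a replicate block there were 1563 and 1460. Named calls that the block changed are given beside the results, except that Aldoa lost its call (adjusted p = 0.0548) and Atp6v0d2 gained one (adjusted p = 0.0279). edgeR called 1737 higher and 1402 lower and DESeq2 1836 and 1542, and with the length and GC trend removed 1626 and 1380 were called. Leaving out single libraries gave 1056 to 2114 higher and 885 to 2067 lower genes, the lowest of the latter without C-178 library 2, with 625 to 781 and 346 to 657 at 2-fold or more. Of the 2-fold rises with CMA alone 644 to 881 were then called here, and of the falls 395 to 529.

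With array weights CMA alone gave 3672 higher and 3708 lower genes, and 1761 to 2075 and 1536 to 1810 without single libraries. The interaction was called higher for 293 genes with no filter, 296 with no trend, 767 by DESeq2 and 1438 with array weights, and lower for 1673 with array weights. Without single libraries it ranged from 122 higher (without unstimulated library a) to 1681 (without library 2 with both compounds), and from 209 lower (without CMA library 2) to 2018. Depth limits values near 0, such as those of the interferon alpha genes: 3 reads over a group amount to 0.724 normalised counts with C-178 and 0.686 with both compounds.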
